A study of Mus musculus with 12 samples.

Results

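Absorption and secretion of salt across the intestinal mucosa rest on a small set of membrane transporters. The genes described here are Scnn1a, Scnn1b and Scnn1g, which encode the subunits of the epithelial sodium channel, Slc9a2 and Slc9a3, which encode sodium/hydrogen exchangers, Slc26a2, Slc26a3 and Slc26a6, which encode anion exchangers, Cftr, which encodes the cAMP-regulated chloride channel, and Atp12a, which encodes the catalytic subunit of the non-gastric (colonic) hydrogen/potassium ATPase. These 10 genes were taken from the 53715 gene identifiers of the deposited table by their symbols in GENCODE M21. The list of symbols was set with earlier results of these data known. The RNA was that of mucosa from the ileum and the colon of male C57BL/6J mice, aged 8 weeks, in 12 libraries. There were 3 libraries each of ileum from control mice, ileum from Slc39a8-IEC KO mice, colon from control mice and colon from Slc39a8-IEC KO mice. Slc39a8 encodes a transporter of manganese, zinc and other divalent metals. The labels give the control genotype as Slc39a8-fl/fl, homozygous for the floxed allele, whereas the methods of the study describe controls as floxed, wild-type and Villin-Cre mice mixed. In the KO mice the floxed gene is cut by Villin-Cre, a Cre recombinase made in intestinal epithelial cells and not in the muscle, stromal or immune cells of the mucosa. The labels do not say whether the ileal and the colonic libraries came from the same mice. In RNA of whole mucosa, fewer cells of a type and less RNA per cell cannot be told apart.

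Enterocytes take up sodium chloride mainly by pairing a sodium/hydrogen exchanger with a chloride/bicarbonate exchanger in the brush border, and the distal colon adds sodium uptake through the epithelial sodium channel, which aldosterone controls. Chloride and fluid are secreted through Cftr, which is richest in crypts, and bicarbonate leaves the cell through Cftr or in exchange for chloride. Slc26a3 is known as the gene of congenital chloride diarrhoea and Cftr as the gene of cystic fibrosis.

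The depth was 16749138 to 27903083 expected counts per library. Values are given as CPM, counts scaled to a common library size with edgeR's TMM factors, and as RPKM, which divides CPM by the summed exon length in kilobases, where genes are compared with each other. Slc39a8, the targeted gene, was at 8.39, 5.22 and 6.59 CPM in the ileum of control mice against 4.35, 2.62 and 2.80 CPM in that of KO mice. The colon held 20.8, 20.5 and 20.1 CPM in control mice against 7.35, 11.5 and 7.93 CPM in KO mice. Each KO library was below the control libraries of its tissue, so no library went against its genotype label. Of the epithelial markers (8 of 8 detected), the summed level was 18510 to 22950 CPM in ileal and 9254 to 10460 CPM in colonic libraries. The ileal marker list was summed to 8482 to 12150 CPM in ileum and 575 to 923 CPM in colon, where Slc10a2 alone still had 547 to 916 CPM. The colonic marker list was summed to 14970 to 27190 CPM in colon, almost all of it Car1, while Hoxb13 and Hoxd13, which mark the distal colon, held 0 to 4 counts in every colonic library. Ileum control replicate 3 and ileum KO replicate 1 stood apart from the other ileal libraries. Their 6 smooth muscle markers were summed to 34.2 and 20.2 CPM, against 1814 to 2643 CPM in the other 4 ileal and 2536 to 3954 CPM in the colonic libraries. Their 6 crypt and stem cell markers were summed to 1258 and 888 CPM, against 311 to 432 CPM in the other ileal libraries. Ileum KO replicate 2 held Car1 at 2632 CPM, against 3.40 to 144 CPM in the other ileal libraries.

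All coordinates are those of GRCm38 (mm10) in GENCODE M21. Scnn1g (chr7:121734479-121768475) and Scnn1b (chr7:121865038-121918514) are neighbours on the plus strand with 96562 bases between them, and Scnn1a lies apart at chr6:125320659-125344943. Slc9a2 is at chr1:40680574-40769273, Slc9a3 at chr13:74121457-74169442, Slc26a3 at chr12:31390871-31473917, Slc26a6 at chr9:108853283-108913049, Cftr at chr6:18170687-18322768 and Atp12a at chr14:56365068-56388550. These genes are on the plus strand.

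RefSeq promoter windows (GRCm38.p6, 248 bases upstream of the RefSeq start, plus strand) were matched for 6 of the 10 genes. Those of Slc26a3 and Slc9a3 are shown because the transcripts of these partners in salt uptake were both higher in colon, that of Scnn1b because its transcript was near 0 in ileum, and that of Cftr because its transcript overlapped between the tissues. Capitals mark the letters of 5 motifs searched on both strands, namely the GC box GGGCGG, the TATA box TATAAA, the HNF1 half-site GTTAAT, the steroid receptor half-site AGAACA and the CDX core TTTAT (whose reverse complement ATAAA lies within the TATA box). The Slc26a3 window lies inside the GENCODE gene, which begins farther upstream, and holds no exon of it.
Slc26a3, chr12:31437969-31438216: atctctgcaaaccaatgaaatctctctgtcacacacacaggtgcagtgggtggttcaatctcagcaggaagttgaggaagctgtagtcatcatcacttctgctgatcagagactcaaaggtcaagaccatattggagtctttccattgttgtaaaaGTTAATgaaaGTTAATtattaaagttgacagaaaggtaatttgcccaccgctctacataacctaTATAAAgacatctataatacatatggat
Slc9a3, chr13:74121163-74121410: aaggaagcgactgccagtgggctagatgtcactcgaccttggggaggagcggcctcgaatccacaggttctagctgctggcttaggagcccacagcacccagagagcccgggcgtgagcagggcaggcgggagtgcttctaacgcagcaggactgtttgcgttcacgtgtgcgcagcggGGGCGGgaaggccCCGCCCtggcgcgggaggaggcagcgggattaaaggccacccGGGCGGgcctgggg
Scnn1b, chr7:121864788-121865035: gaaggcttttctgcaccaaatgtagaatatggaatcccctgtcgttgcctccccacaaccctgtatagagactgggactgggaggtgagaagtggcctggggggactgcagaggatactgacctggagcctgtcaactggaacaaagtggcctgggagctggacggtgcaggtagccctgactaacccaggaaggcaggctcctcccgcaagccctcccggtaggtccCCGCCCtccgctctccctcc
Cftr, chr6:18170437-18170684: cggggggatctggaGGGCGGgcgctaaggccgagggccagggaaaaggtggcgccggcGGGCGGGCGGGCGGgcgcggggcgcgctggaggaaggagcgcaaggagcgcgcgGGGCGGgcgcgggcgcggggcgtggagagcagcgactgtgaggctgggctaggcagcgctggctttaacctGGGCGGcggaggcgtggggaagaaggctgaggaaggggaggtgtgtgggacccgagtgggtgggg
The Slc26a3 window held 38.3% G and C, and 9.01% of the 32851 RefSeq promoter windows held less. It had 2 copies of GTTAAT, which stands in 6.41% of all windows, 1 TATAAA, which stands in 12.3%, and no GGGCGG, which stands in 32.5%. The Slc9a3 window held 67.7% G and C with 3 GC boxes, and the Cftr window 76.2% with 6 GC boxes, some of them overlapping, so that 96.9% of windows held less. The Scnn1b window held 60.5% with 1 GC box. AGAACA, found in 16.0% of windows, and TTTAT outside the TATA box were not among the letters of these windows. Matches of this kind describe the letters of a window and not sites that were measured.

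Between the tissues, both sodium/hydrogen exchangers, the alpha and beta subunits of the sodium channel, 2 anion exchangers and the hydrogen/potassium ATPase were higher in colon, 1 anion exchanger was higher in ileum, and the chloride channel overlapped. In control mice 7 of the 10 genes were higher in every colonic than in every ileal library, namely Scnn1a, Scnn1b, Slc9a2, Slc9a3, Slc26a2, Slc26a3 and Atp12a. Slc26a6 was lower in every colonic library, and Scnn1g and Cftr overlapped. The same counts held in Slc39a8-IEC KO mice. Of all 16558 genes tested, 20.3% were higher without overlap and 20.4% lower in control mice, and 25.5% and 24.9% in KO mice. In 32.8% the tissues were separated in the same direction in both genotypes, as for 8 of these 10 genes. Without Scnn1b, Atp12a and Scnn1g, whose low counts are treated next, the like count was 6 of 7. Of the 10 genes, 9 passed edgeR's filter on low counts (Scnn1g did not). Scnn1b and Atp12a passed through their colonic counts alone, which fixed their direction, and are given by their counts and not as calls. Of the 7 others, edgeR's quasi-likelihood test called 6 at an adjusted p under 0.1, 5 higher and 1 lower in colon, in both genotypes. The background was 35.9% of genes called in control mice (16.2% higher and 19.6% lower) and 37.1% in KO mice (17.1% higher, with 3312 genes lower). With library size as the only scaling, 66.4% of the calls in control and 70.8% in KO mice were on the higher side, with upper-quartile factors 55.2% and 58.3%, and with TMM factors 45.3% and 46.1%. The median log2 fold change of all genes was 0.02 and 0.01 with TMM, 0.24 and 0.29 with library size only and 0.12 and 0.14 with upper-quartile factors. The direction of each of the 6 genes was the same under these scalings. Without the pair of ileal libraries with few muscle transcripts, 6 of the 7 were again called in both genotypes.

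**Figure D1:**
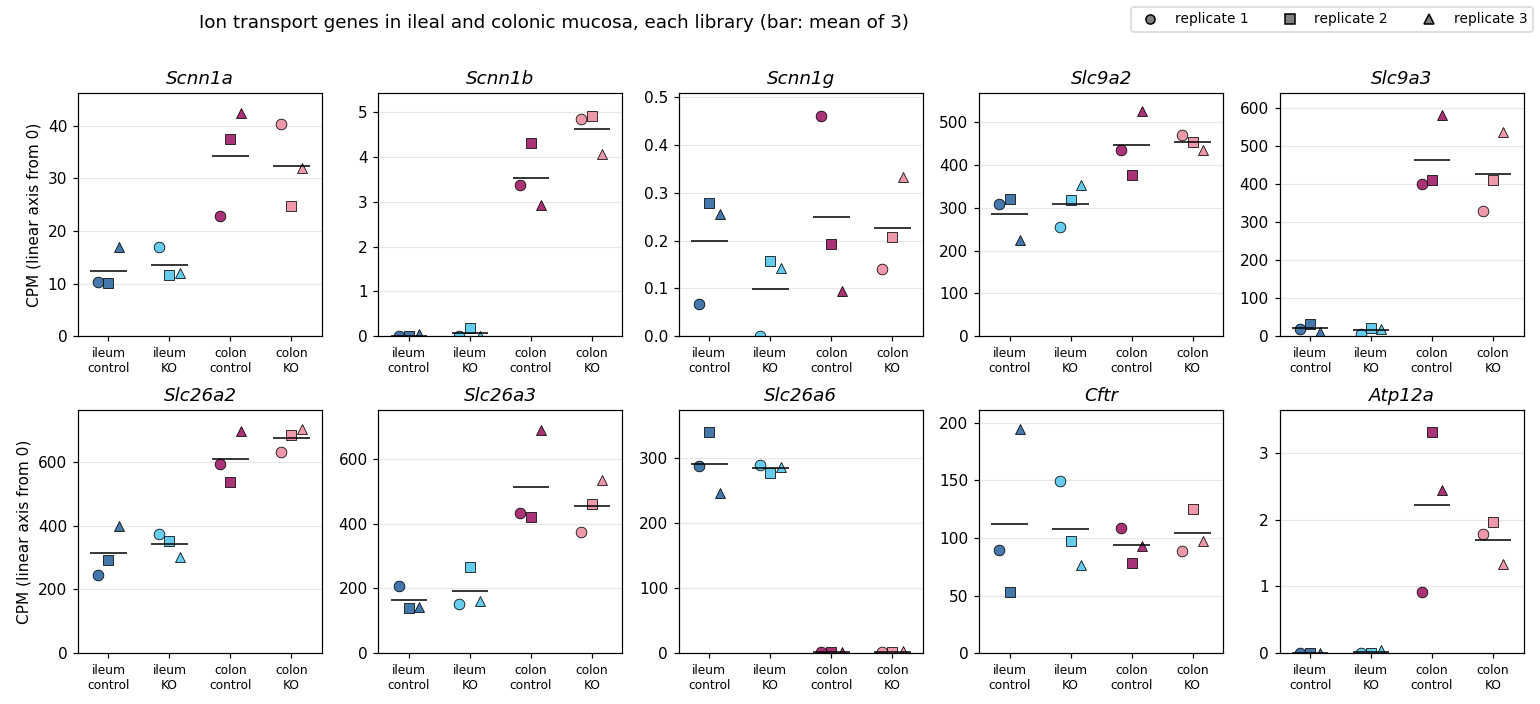
Level of each gene in CPM (vertical axis, linear from 0, a scale of its own in each panel) in the 3 libraries of each group (horizontal axis), with circles, squares and triangles for replicates 1, 2 and 3 and a bar at the group mean. Slc26a6 stands at 246 to 340 CPM in ileum and at 1.24 to 2.82 CPM in colon, and Slc9a3 at 6.38 to 33.1 CPM in ileum and 328 to 580 CPM in colon.

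The subunits of the epithelial sodium channel did not share a pattern. Scnn1a, the alpha subunit, which is needed for the channel to form, was at 10.3, 10.2 and 16.9 CPM in ileal control and 22.9, 37.5 and 42.4 CPM in colonic control libraries (replicates 1 to 3). In KO mice it was at 17.0, 11.7 and 11.99 CPM in ileum and 40.3, 24.8 and 32.0 CPM in colon. The mean was 12.4 ± 3.85 CPM (SD, n = 3) in ileal and 34.3 ± 10.1 CPM in colonic control libraries. On the log2 scale colon exceeded ileum by 1.46 with a standard error of 0.29 in control mice (adjusted p = 0.00304 in edgeR) and by 1.26 with one of 0.29 in KO mice (adjusted p = 0.00715 in edgeR). The ileal libraries with the most Scnn1a were the pair with few muscle transcripts.

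Scnn1b, the beta subunit, held 0, 0 and 1 counts in ileal control and 0, 5 and 0 counts in ileal KO libraries, against 66, 90 and 62 counts in colonic control and 103, 95 and 98 counts in colonic KO libraries. Beta transcripts were thus detected in every colonic library and in 2 of 6 ileal libraries. The pooled CPM of the 3 libraries was 200.1 times as high in colon as in ileum in control mice (exact counting interval 35.5 to 7940) and 58.1 times in KO mice (24.6 to 180.4). Intervals of this kind cover counting error and not the spread between mice. The 5 counts of the ileal KO group lay in replicate 2, the ileal library with 2632 CPM of Car1. Whether colonic RNA has a part in those counts was not tested.

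Scnn1g, the gamma subunit, held 1, 5 and 6 counts in ileal control, 0, 4 and 3 in ileal KO, 9, 4 and 2 in colonic control and 3, 4 and 8 in colonic KO libraries. It was near the limit of detection throughout. The ratio of colon to ileum was 1.15 (exact counting interval 0.501 to 2.69) in control and 2.11 (0.808 to 6.10) in KO mice, so a difference was not detectable at this depth. In colon the alpha subunit was the most abundant per exon length, at 8.29 ± 2.45 RPKM in control mice, followed by beta at 1.34 ± 0.271 and gamma at 0.0832 ± 0.0635 RPKM. The ranges of these 3 did not overlap in either genotype in colon.

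Sodium/hydrogen exchange changed its make-up between the tissues. Slc9a3, the exchanger of the absorptive brush border, was at 18.6, 33.1 and 11.8 CPM in ileal control and 401, 409.8 and 580.2 CPM in colonic control libraries. In KO mice it was at 6.38, 21.7 and 20.4 CPM in ileum and 328, 411 and 538 CPM in colon. The lowest ileal value of each genotype fell in a library with few muscle transcripts. The colonic mean of 463.5 ± 101 CPM was 21.9 times the ileal mean of 21.2 ± 10.8 CPM in control mice, and in KO mice the ratio was 26.4. On the log2 scale the differences were 4.45 with a standard error of 0.50 and 4.71 with one of 0.51 (adjusted p = 5.86e-05 and 4.2e-05 in edgeR). Slc9a2, an exchanger found along the whole intestine, was at 308, 321 and 224 CPM in ileal control and 435, 377 and 525 CPM in colonic control libraries. The KO libraries held it at 255, 317 and 352 CPM in ileum and 469, 454 and 435 CPM in colon. Colon exceeded ileum by 0.65 on the log2 scale with a standard error of 0.18 in control mice (adjusted p = 0.0199 in edgeR). The difference was 0.55 with one of 0.18 in KO mice (adjusted p = 0.0399 in edgeR), and this call was lost without ileum KO replicate 1 (0.43, adjusted p = 0.131 in edgeR) and without colon KO replicate 1 (0.51, adjusted p = 0.102 in edgeR).

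Within each library, Slc9a3 made up 6.29% to 11.6% of the summed RPKM of Slc9a3 and Slc9a2 in ileal control and 3.07% to 7.99% in ileal KO libraries. In colon it made up 53.9% to 58.4% in control and 47.0% to 61.1% in KO libraries. A share of this kind does not depend on the scaling of the library. Slc9a2 transcripts therefore outnumbered Slc9a3 per length in all 6 ileal libraries, while in colon Slc9a3 was ahead in 5 of 6.

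The 3 anion exchangers followed 2 patterns. Slc26a3, the chloride/bicarbonate exchanger of absorption, was at 207, 139 and 143 CPM in ileal control and 433, 421 and 689 CPM in colonic control libraries. In KO mice it was at 151, 266 and 162 CPM in ileum and 374, 459.7 and 535 CPM in colon. The highest ileal value was again that of KO replicate 2. Colon exceeded ileum by 1.66 on the log2 scale with a standard error of 0.28 in control mice and by 1.24 with one of 0.27 in KO mice (adjusted p = 0.00101 and 0.00587 in edgeR). Slc26a2 (chr18:61192919-61211612, minus strand), a sulfate transporter that also exchanges chloride, was at 246, 293 and 400 CPM in ileal control and 593, 537 and 696 CPM in colonic control libraries. The KO libraries held it at 373, 353 and 301 CPM in ileum and 633, 684 and 705 CPM in colon. The log2 differences, 0.96 in control and 0.98 in KO mice, both had a standard error of 0.18 (adjusted p = 0.0025 and 0.00225 in edgeR).

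Slc26a6, an exchanger of chloride for bicarbonate and oxalate, ran the other way. It was at 289, 340.1 and 246 CPM in ileal control and 289, 278 and 287 CPM in ileal KO libraries. The colonic libraries held 2.25, 2.02 and 2.26 CPM (control) and 2.21, 1.24 and 2.82 CPM (KO), which were 24 to 68 counts. The ileal mean was 134 times the colonic mean in control mice (292 ± 47.1 and 2.18 ± 0.139 CPM) and 136 times in KO mice. The log2 fold changes of colon over ileum, -7.06 in control and -7.07 in KO mice, both had a standard error of 0.27 (adjusted p = 4.07e-08 and 3.99e-08 in edgeR). By p it ranked 7 of 16558 genes in both genotypes. Of the summed RPKM of Slc26a3 and Slc26a6, Slc26a3 made up 25.8% to 37.8% in ileal control and 30.8% to 44.8% in ileal KO libraries. In colon it made up 99.4% to 99.6% in control and 99.3% to 99.7% in KO libraries.

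**Figure D2:**
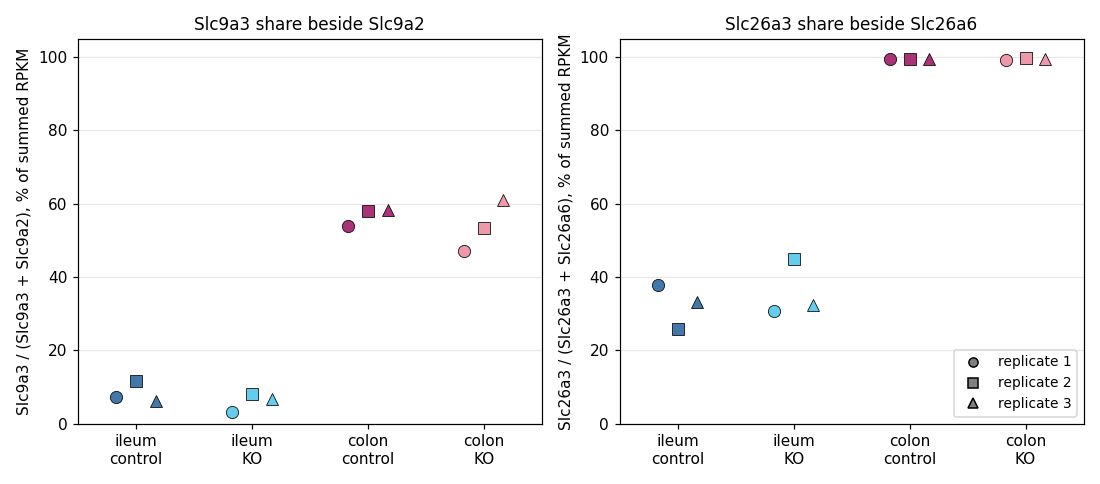
Share of Slc9a3 in the summed RPKM of Slc9a3 and Slc9a2 (left) and of Slc26a3 in the summed RPKM of Slc26a3 and Slc26a6 (right), in percent from 0, with 1 point per library in each of the 4 groups. No ileal library reached a colonic one: the highest ileal shares were 11.6% and 44.8% and the lowest colonic shares 47.0% and 99.3%.

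Cftr was at 89.6, 53.2 and 194 CPM in ileal control and 109, 78.7 and 92.9 CPM in colonic control libraries. The KO libraries held it at 149, 97.1 and 76.6 CPM in ileum and 89.1, 125 and 97.8 CPM in colon. The tissues overlapped in both genotypes. The log2 fold change of colon over ileum was -0.27 (95% interval -1.12 to 0.59, adjusted p = 0.646 in edgeR) in control and -0.05 (-0.91 to 0.81, adjusted p = 0.938 in edgeR) in KO mice. The highest ileal values were those of the pair with few muscle transcripts. Without this pair the log2 fold change in control mice was 0.37, and without ileum control replicate 3 alone it was also 0.37 (adjusted p = 0.4 in edgeR), on the other side of 0. In the same pair Mki67, a gene of dividing cells, was at 233 and 161 CPM, against 82.2 to 121 CPM in the other ileal libraries. Olfm4, a gene of small intestinal crypt cells, was at 751 and 523 CPM, against 106 to 181 CPM. Slc12a2, which loads the cell with chloride from the basolateral side for secretion, was at 324 and 243 CPM, against 81.4 to 129 CPM. Over the 12 libraries, after the group mean was taken from each log2 CPM value, Cftr had r = 0.92 with Mki67 and r = -0.85 with Des, a muscle gene, a description over libraries that include this pair. Mki67 had the highest r of the 6 crypt and stem cell markers. The others had 0.87 (Lgr5), 0.86 (Olfm4), 0.84 (Top2a), 0.52 (Ascl2) and, on the other side of 0, -0.15 (Smoc2). Between the tissues the crypt and stem cell markers moved while Cftr overlapped. Their sum was 104.8 to 130.5 CPM in colonic libraries, below every ileal one. Of the ileal sums Olfm4 alone gave 106 to 751 CPM, and it fell to as few as 0 counts in colon, so the sum also follows this regional gene. In edgeR 5 of the 6 were called lower in colon in both genotypes, with median log2 fold changes of -1.86 and -1.55. Olfm4 is among the 6, but passed the filter on low counts through its ileal counts alone, which fixed its direction. Of all 16558 genes, 19.6% were called lower in control mice, and 3312 genes in KO mice. The part of muscle and crypt content in the Cftr level was not tested.

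**Figure D3:**
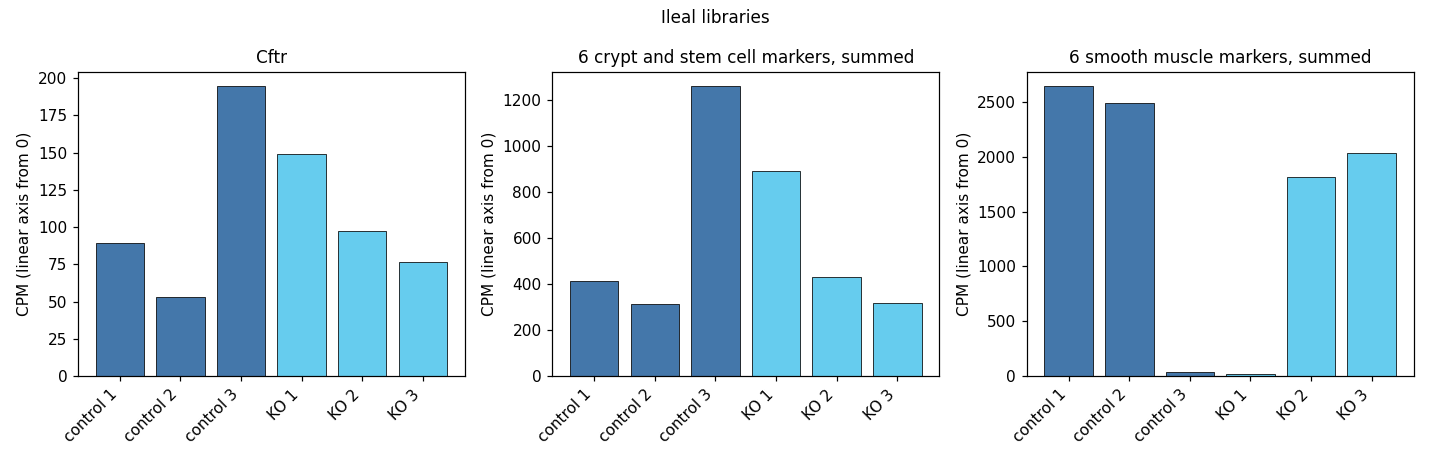
CPM (vertical axes, linear from 0) of Cftr, of the summed 6 crypt and stem cell markers and of the summed 6 smooth muscle markers in the 6 ileal libraries, with dark bars for control and light bars for KO mice. Control replicate 3 and KO replicate 1 have the highest Cftr (194 and 149 CPM), the highest crypt sums (1258 and 888 CPM) and the lowest muscle sums (34.16 and 20.15 CPM).

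Atp12a, which takes up potassium in exchange for protons at the apical side of the distal colon, held 0 counts in the 3 ileal control libraries and 0, 0 and 1 in the ileal KO libraries. In colon it held 18, 69 and 52 counts in control and 38, 38 and 32 counts in KO libraries, that is 0.922, 3.31 and 2.45 CPM and 1.79, 1.97 and 1.33 CPM. Against the limit that a count of 0 allows (3 counts over the 3 ileal libraries), the colonic level in control mice was 42.5 times as high, and by the exact counting interval of the ratio it was at least 34.1-fold higher. In KO mice the ratio was 106 (exact counting interval 18.6 to 4228). Of its exon bases, 13.9% are shared with the antisense gene Gm10873, which held 5 counts in all, against 248 for Atp12a. Cftr shares 1.66% of its exon bases with the antisense gene Gm15592, which held 39 counts against 25880. Reads of such partners could not be told apart if the counting ignored strand.

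In the exact permutation test (two-sided, tissues exchanged within each genotype, log2 of CPM + 0.5) the overlapping genes had p = 0.905 (Cftr) and p = 0.275 (Scnn1g) over both genotypes. Separation in both genotypes fixes the p of the other 8 genes at 0.005, the smallest that 400 arrangements allow, so there it only restates that the libraries did not overlap. Within 1 genotype the 20 arrangements of 3 libraries against 3 allow no exact p below 0.1. The test takes the ileal and colonic libraries as independent mice.

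**Figure D4:**
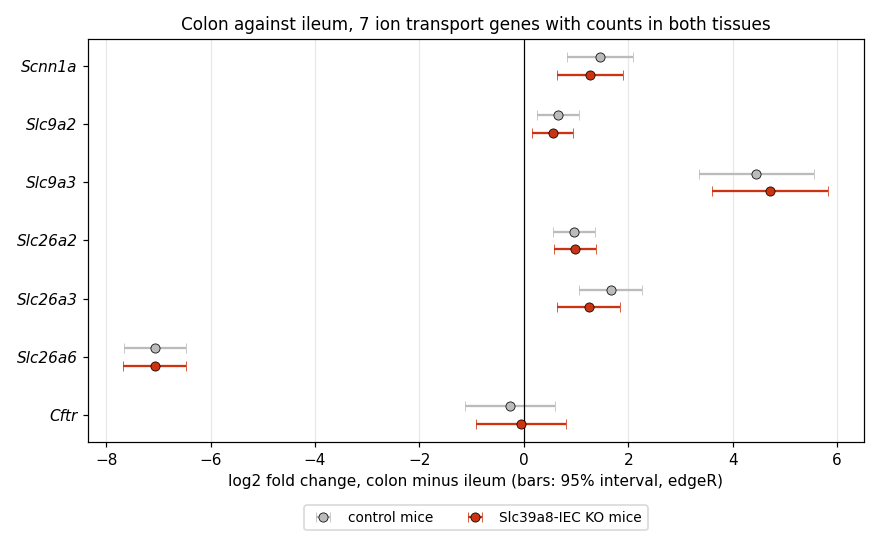
log2 fold change of colon over ileum (horizontal axis) with 95% intervals from edgeR for the 7 genes with counts in both tissues (rows), grey for control and red for Slc39a8-IEC KO mice. Intervals of Scnn1a, Slc9a2, Slc9a3, Slc26a2 and Slc26a3 lie above 0, those of Slc26a6 near -7.06 and -7.07, and those of Cftr span 0.

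The order of the levels per length changed most for Slc26a6 and Slc9a3 between the tissues, while Slc26a2 and Cftr kept their places. In ileal control libraries it was led by Slc26a6 (53.9 ± 8.70 RPKM) and Slc9a2 (40.7 ± 7.57), which overlapped, then Slc26a3 (25.6 ± 5.95) and Slc26a2 (25.3 ± 6.36), which did not differ beyond their spread, then Cftr (14.5 ± 9.44). Slc9a3 (3.85 ± 1.97) and Scnn1a (3.01 ± 0.931) followed with overlapping ranges, and the other 3 genes were at or below 0.0668 RPKM. In colonic control libraries Slc9a3 (84.2 ± 18.4) and Slc26a3 (80.7 ± 23.8) led with overlapping ranges, followed by Slc9a2 (63.8 ± 10.7), Slc26a2 (49.2 ± 6.55), Cftr (12.04 ± 1.95) and Scnn1a (8.29 ± 2.45). Slc26a6, the leader in ileum, was 9th of the 10 in colon at 0.402 ± 0.0258 RPKM. In KO mice the order differed from that of control mice only in ileum, where Scnn1a and Slc9a3, whose ranges overlapped, changed places.

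Other genes of the same transport, in lists written with earlier results of these data known, were split in direction between the tissues. Of 17 listed genes of sodium absorption, 16 were tested, and in control mice 4 were higher and 4 lower in colon, with a median log2 fold change of 0.07. In KO mice 7 were higher and 5 lower, with a median of 0.20. Of all 16558 genes, 16.2% were called higher and 19.6% lower in control mice. In KO mice 17.1% of all genes were called higher, with 3312 lower. With library size as the only scaling the counts were 8 higher and 3 lower in control and 9 higher and 2 lower in KO mice. Under that scaling 4156 of all genes were higher and 2102 lower in control mice, and 4637 and 1908 in KO mice. Without the pair of ileal libraries with few muscle transcripts, 6 were higher and 3 lower in KO mice, where 3631 of all 16896 genes were higher and 3667 lower. Pdzk1, a scaffold protein that holds Slc9a3 and Cftr at the brush border, was at 288 to 477 CPM in ileal control and 305 to 584 CPM in ileal KO libraries, and held 0 to 8 counts in the colonic libraries. It is among the lower genes of this list, but passed the filter through its ileal counts alone, which fixed its direction. Slc9a3r1, another scaffold of Slc9a3, was lower in colon by a log2 fold change of -1.82 in control and -2.03 in KO mice (adjusted p = 1.24e-05 and 5.7e-06 in edgeR). Both scaffold transcripts were thus higher in ileum, where Slc9a3 was lower. Slc9a3r2, the third scaffold, had 0.58 (adjusted p = 0.164 in edgeR) in control mice and was higher in colon in KO mice at 1.40 (adjusted p = 0.00415 in edgeR), and the difference between the genotypes was not called.

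The genes by which aldosterone acts did not move together either. Nr3c2, the mineralocorticoid receptor, was higher in colon, with a log2 fold change of 0.95 in control and 0.89 in KO mice (adjusted p = 0.000102 and 0.000159 in edgeR). Hsd11b2, which keeps glucocorticoids from that receptor, was higher at 1.55 and 1.83 (adjusted p = 0.0211 and 0.00925 in edgeR). Without ileum control replicate 3, in which Hsd11b2 was at 34.2 CPM against 7.06 and 12.1 CPM in the other ileal control libraries, the call held. Sgk1, a kinase that raises channel activity, had -1.48 and -0.36 (adjusted p = 0.13 and 0.714 in edgeR) and spread from 96.2 to 605 CPM over ileal and 56.6 to 392 CPM over colonic libraries. In control mice it was called lower without ileum control replicate 2 or without colon control replicate 1. Nedd4l, a ligase that removes the channel from the membrane, had 0.26 and 0.17 (adjusted p = 0.178 and 0.391 in edgeR), and was called higher in control mice without ileum control replicate 2. Prss8, a protease that activates the channel, was lower in colon in control mice at -0.44 (adjusted p = 0.0937 in edgeR), but the call held in 12 of 26 alternative fits, and in KO mice the value was 0.23 (adjusted p = 0.366 in edgeR). Tsc22d3, a steroid-induced gene, was lower at -1.07 and -0.90 (adjusted p = 0.0153 and 0.0329 in edgeR), and the call in KO mice was lost without colon KO replicate 1. Atp1b1, the beta subunit of the sodium pump, which drives all of this transport, had -0.29 and -0.41. It was called lower in KO mice alone (adjusted p = 0.0871 in edgeR), and this call held in 10 of 26 alternative fits.

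All 13 listed genes of chloride secretion were tested. In both genotypes 6 were higher and 1 lower in colon, with medians of 1.07 and 0.91, where 16.2% and 17.1% of all genes were called higher. Without the pair of ileal libraries with few muscle transcripts 8 were higher and 1 lower. More genes were called higher in all in that fit, 3370 of 16896 in control and 3631 in KO mice. With the smooth muscle score as a term 9 were higher in control and 10 in KO mice. There 3563 and 3608 of all 16558 genes were higher, against 2689 and 2837 without the score. The higher genes included Clcn2, a chloride channel of absorption (1.24 and 0.91, adjusted p = 6.35e-05 and 0.000558 in edgeR), and Kcnma1, a potassium channel that smooth muscle also expresses (1.09 and 1.69, adjusted p = 0.02 and 0.00184 in edgeR). Kcne3, the partner of the basolateral potassium channel Kcnq1, was higher at 1.07 and 1.24 (adjusted p = 0.00341 and 0.0014 in edgeR), whereas Kcnq1 itself had -0.49 and -0.22 and was not called. Best2, a bicarbonate-conducting channel of colonic goblet cells, held 26 to 109 counts in colonic libraries and 0 to 13 counts in ileal ones, the 13 of them in ileum control replicate 3. It is 1 of the 6, but passed the filter on low counts through its colonic counts alone, which fixed its direction. The gene that was lower was Guca2b, which encodes uroguanylin, a peptide that opens Cftr through guanylate cyclase C. Its log2 fold change was -4.53 and -4.38 (adjusted p = 0.000102 and 0.000122 in edgeR). Guca2a, which encodes guanylin, the related peptide of the colon, was higher at 1.13 and 1.06 (adjusted p = 0.00171 and 0.00252 in edgeR). Their common receptor Gucy2c had 0.19 and 0.16 (adjusted p = 0.568 and 0.616 in edgeR). Slc12a2 had 0.65 and 0.84 (adjusted p = 0.306 and 0.183 in edgeR), and was called higher in colon in both genotypes without the pair of ileal libraries.

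Of 10 listed genes of bicarbonate transport 7 were tested, and 2 were higher and 2 lower in colon in both genotypes. The medians were 0.56 in control and -0.06 in KO mice. The background was 16.2% of all genes higher and 19.6% lower in control mice, and 17.1% higher with 3312 of 16558 genes lower in KO mice. Slc4a2, the basolateral chloride/bicarbonate exchanger, was higher at 1.94 and 1.76 (adjusted p = 1.22e-05 and 2.41e-05 in edgeR), and Slc4a7, a sodium/bicarbonate cotransporter, at 0.95 in both (adjusted p = 0.00512 and 0.00499 in edgeR). Slc4a4, the main basolateral sodium/bicarbonate cotransporter, was lower at -0.66 and -0.81 (adjusted p = 0.01 and 0.0031 in edgeR). Slc4a5, of the same family, was also called lower, on 5 to 31 counts in ileal and 0 to 4 counts in colonic libraries. Its ileal counts alone passed it through the filter, which fixed that direction.

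Between genotypes, no transport gene of the 10 was found to differ. In each tissue the 3 KO and the 3 control libraries overlapped for all 10 genes, where 3.70% of the 16558 genes did not overlap in ileum, 12.8% in colon and 0.411% in both tissues in the same direction. Over both tissues edgeR called none of the 16558 genes for genotype (0%), with 641 (3.87%) at an unadjusted p under 0.05, none of them among the 9 tested here. Slc39a8, the targeted gene, was itself not called (log2 fold change -1.13, adjusted p = 0.382 in edgeR). The lack of a call in this fit therefore does not show that a gene was unchanged. Within ileum edgeR called 0 genes with 252 (1.52%), and within colon 0 with 385 (2.33%), at an unadjusted p under 0.05. DESeq2 called 4 genes over both tissues and limma-voom 1, and neither called any of the 9. The difference between the genotype effects of the 2 tissues was likewise called for 0 genes, with 169 (1.02%) at an unadjusted p under 0.05.

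Over both tissues the log2 fold changes of KO over control were 0.02 for Scnn1a (95% interval -0.40 to 0.44), 0.07 for Slc9a2 (-0.20 to 0.33), -0.25 for Slc9a3 (-0.89 to 0.40), 0.14 for Slc26a2 (-0.13 to 0.40), 0.03 for Slc26a3 (-0.38 to 0.45), -0.04 for Slc26a6 (-0.36 to 0.28) and 0.04 for Cftr (-0.53 to 0.62). The narrowest intervals were those of Slc9a2, Slc26a2 and Slc26a6, and the widest that of Slc9a3. For Scnn1b the value rested on colon, where control libraries averaged 3.54 ± 0.713 CPM and KO libraries 4.61 ± 0.474 CPM (exact permutation test, two-sided, p = 0.2). The colonic mean of Atp12a was 2.23 ± 1.21 CPM in control mice and 1.70 ± 0.330 CPM in KO mice. In ileum, the log2 fold change of Cftr was -0.06 (95% interval -0.92 to 0.79), and it was 0.60 without ileum control replicate 3. That of Slc9a3 was -0.38 (-1.35 to 0.59), and it was 0.10 without ileum control replicate 2. Over both tissues the exact permutation p (two-sided, 400 arrangements, smallest possible 0.005) lay at 0.1 for Scnn1b and above it for the other genes. This test and the edgeR fit over both tissues take the ileal and colonic libraries as independent mice. If the same mice gave both tissues, they count more independent animals than there were. Of the 16 sodium absorption, 13 chloride secretion and 7 bicarbonate transport genes tested none was called between genotypes in edgeR, and 1 was at an unadjusted p under 0.05 over both tissues, namely Tsc22d3 (log2 fold change 0.42, adjusted p = 0.998 in edgeR).

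**Figure D5:**
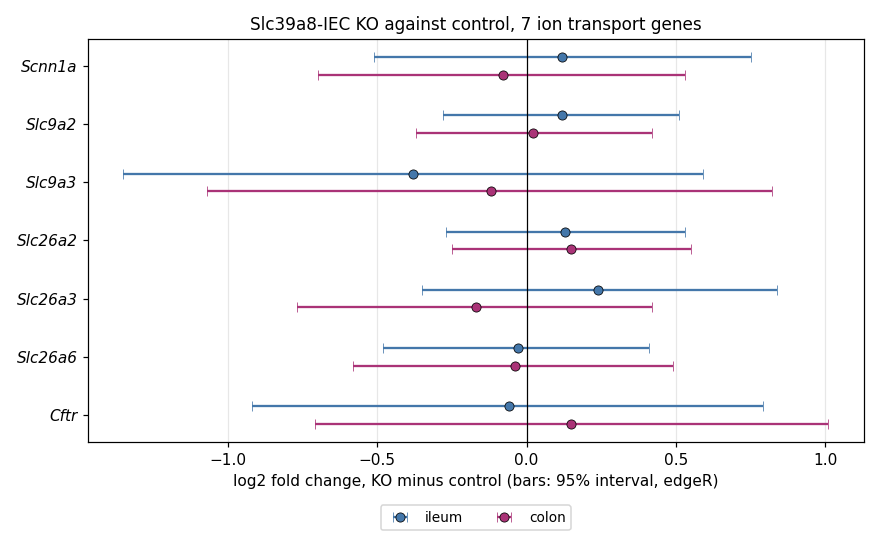
log2 fold change of Slc39a8-IEC KO over control (horizontal axis) with 95% intervals from edgeR in ileum (blue) and colon (purple) for the 7 genes with counts in both tissues (rows). Every interval spans 0, from the narrowest for Slc26a2 and Slc9a2 to the widest for Slc9a3 and Cftr.

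Within the groups, the genes whose residual log2 CPM (value minus group mean, 12 libraries, 16558 genes searched) went most closely with each gene were Cmtm4 for Scnn1a (r = 0.99), Plekhb2 for Slc9a2 (0.96), Ssc5d for Slc9a3 (0.97), Prkci for Slc26a2 (0.97), Tent5a for Slc26a3 (0.93), Trib3 for Slc26a6 (0.90) and Sgo2a for Cftr (0.98). These values describe the 12 libraries, which include the pair of ileal libraries with few muscle transcripts. Among the transport genes, Slc9a2 and Slc9a3 had r = 0.76, Cftr and Slc26a2 had r = 0.69, and Cftr had -0.70 with Slc9a2 and -0.76 with Slc9a3. Muscle content moved with the same genes, as Myh11, a smooth muscle gene, had r = 0.76 with Slc9a2, 0.87 with Slc9a3 and -0.84 with Cftr. The epithelial markers were divided unevenly. Krt20, a keratin of mature surface cells, had 0.90, 0.78 and -0.69 with these genes. Epcam, Cdh1, Vil1, Krt8 and Cdx2 had the same signs as Krt20, at smaller values. Krt18, a keratin of simple epithelia, had -0.58, -0.64 and 0.56, and Krt19 alone shared its signs. The part of cell content in these correlations was not tested.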

How the data were processed

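Poly(A)-primed libraries of mucosal RNA from ileum and colon were grouped by tissue and genotype from the labels, 3 per group. The authors aligned reads to mm10 with STAR and deposited a table of expected counts per gene, which are estimates of reads that are not normalized. The reporting summary of the study names UMI-tools for removing duplicates and FeatureCounts for counting uniquely mapped reads. Whether FeatureCounts also made the deposited estimates, some of which are not whole, and whether counting used strand were not stated. Of 53807 lines, 92 spike-in sequences held 0 counts and were left out. Symbols were matched by Ensembl identifier without version for 53620 of 53715 genes, and positions and exon lengths were taken from GENCODE M21. All 120 values of the 10 genes were whole within 0.001.

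Expected counts were rounded and tested with edgeR 4.0.16 in R 4.3.3 (filterByExpr, TMM, quasi-likelihood test, 4-group model, tissue plus genotype for the effect over both tissues). p-values were adjusted by Benjamini-Hochberg over 16558 genes with a threshold of 0.1. DESeq2 1.42.0, limma 3.58.1 (voom), other scalings and filters, a replicate block, a muscle marker score and the removal of libraries were alternatives. Residual correlations used log2 CPM with a prior count of 2. Ratios of low counts have exact 95% binomial (Clopper-Pearson) intervals. The steps were tested on simulated data. Exact permutation tests used scipy 1.17.1 in Python 3.11.15, and figures matplotlib 3.10.9. The 10 genes, the partner and marker lists and the pair of ileal libraries were chosen with earlier results of these data known. All 10 genes are named, and of the partner lists those that act on them directly or had the largest called changes. Between ileum and colon, same-numbered libraries deviated with r of -0.05, 0.16 and -0.08 in control and 0.19, 0.05 and 0.25 in KO mice. Differently numbered ones ran from -0.18 to 0.16 in control and from -0.21 to 0.05 in KO mice. These values do not settle whether equal numbers mean the same mouse. As the labels do not say so, numbers were not taken to pair libraries.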

Additional observations from a re-analysis of the deposited data

How the results depend on the processing

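Counts of genes called between genotypes moved from 0 under several alternatives, and none of the called genes was one of the 10. Over both tissues DESeq2 called 4, limma-voom 1, the fit without the pair of ileal libraries with few muscle transcripts 5, the fit with a smooth muscle marker score 3, and leaving out 1 library 0 to 1. In ileum the counts were 2, 1, 3, 1 and 0 to 1 under the same alternatives. In colon DESeq2 and the fit of only the libraries compared each called 1, and DESeq2 called 1 for the difference between tissues. The replicate block (the replicate number as a term) gave 5333 genes between tissues in control mice and 5558 in KO mice, the same 6 of the 7 genes with counts in both tissues, and 0 genes between genotypes, and changed no call of the 10 genes. No called value of the 10 genes changed sign in 1303 recomputed values. Uncalled values changed sign 70 times by less than 1 standard error. By more than 1 standard error, Cftr in colon over ileum turned to 0.37 without the pair and 0.31 with the muscle score in control mice and to 0.49 with the score in KO mice. With 1 library left out, log2 fold changes ran from -0.61 to 0.37 for Cftr between tissues in control mice, from -0.40 to 0.60 between genotypes in ileum and from -0.43 to 0.55 for the difference of its genotype effects. Between genotypes in ileum they ran from -0.68 to 0.10 for Slc9a3, -1.92 to 3.74 for Scnn1b, -0.06 to 0.45 for Slc26a3 and 0.00 to 2.37 for Atp12a. In colon they ran from -0.30 to 0.11 for Slc26a3 and -0.31 to 0.21 for Slc26a6, and the difference of effects of Scnn1b from -3.35 to 2.30. The fitted values of Scnn1b and Atp12a in ileum rest on 0 to 5 counts a library. The causes were not tested. With 3 libraries a group, depth limits Scnn1b, Scnn1g and Atp12a in ileum and Scnn1g in colon, and spread between libraries limits the others.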
